A study of Mus musculus with 18 samples.

Results

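Phosphatidylcholine, the main phospholipid of liver membranes and of secreted lipoproteins, is made by a pair of routes that meet in methyl-group metabolism. In the CDP-choline (Kennedy) route, choline kinase alpha (Chka) phosphorylates choline, and Pcyt1a, the rate-limiting cytidylyl-transferase, activates it. Pcyt2 is the corresponding cytidylyl-transferase of the parallel CDP-ethanolamine route to phosphatidylethanolamine, which Pemt, an enzyme of hepatocytes, methylates to phosphatidylcholine. The methyl donor is S-adenosylmethionine, made by Mat1a and also used by Gnmt, and its product is hydrolysed to homocysteine by Ahcy. Homocysteine is remethylated by Bhmt with betaine, which Chdh helps to make from choline, or enters transsulfuration through Cbs.

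These 10 genes were chosen by symbol as a pathway set, with earlier results of these data known. Each was present in both expression tables, out of 33235 genes per table. The data were RNA-seq libraries of mouse liver. All mice were labelled wild type or, when treated, as Mdm2 knockdown, and all received a GalNAc-conjugated antisense oligonucleotide (ASO). Hepatocytes take up GalNAc, a sugar ligand, through the asialoglycoprotein receptor, so the design directs the ASO to these cells, while the RNA came from whole liver tissue. The ASO was either a control (conASO) or one against Mdm2, the gene of a ubiquitin ligase through which p53 is degraded. Each was given on one of 2 diets, HFHC, named only by its abbreviation in the labels, or CDAHFD, a high-fat diet that lacks choline and supplies defined amino acids. The labels give no age, ASO dose or time. On HFHC there were 4 conASO libraries (replicates 1, 2, 4 and 5) and 3 Mdm2 ASO libraries (6-7, 9 and 10), because the columns of replicates 6 and 7 did not differ in any of the 33235 genes and may be 1 library deposited 2 times, so they count once. On CDAHFD there were 5 conASO (replicates 1 to 5) and 5 Mdm2 ASO libraries (6 to 10).

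HFHC libraries held 17.8 to 18.8 M counted reads and CDAHFD libraries 22.4 to 31.5 M. Levels below are the deposited TMM-normalized counts, that is, reads per gene divided by 1 scaling factor per library, given as mean ± SD. Fold changes are Mdm2 ASO over conASO on the log2(value + 0.5) scale with their standard error (SE) from limma-trend, and p-values are Benjamini-Hochberg adjusted over all genes tested, with 0.05 as the threshold. The labels do not say that each sample was a separate animal, so p-values measure the spread between these samples. Mdm2 itself was at 945 ± 25.6 in conASO and 362 ± 58.2 in Mdm2 ASO libraries on HFHC (log2 fold change -1.39, limma adjusted p = 1.1e-05). On CDAHFD it was at 1565 ± 87.7 and 647 ± 124 (-1.29, limma adjusted p = 3.1e-05), and the groups did not overlap on either diet.

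On HFHC, Chka and Pcyt2 fell with the Mdm2 ASO, while Pcyt1a, Pemt and the 6 genes of methyl-group metabolism did not pass the test. The Chka call held in 2 of 7 fits with 1 library left out, and it did not hold with edgeR or DESeq2. On CDAHFD, Pcyt1a fell to 54.4% of its control level and the other 9 genes did not pass. The responses of the cytidylyl-transferases differed between the diets in opposite directions: the change of Pcyt2 was higher on CDAHFD than on HFHC, and that of Pcyt1a was lower, the latter close to the threshold and past it in 4 of 17 fits with 1 library left out. With the deposited scaling and all libraries, no member rose past the threshold on either diet with limma, nor with edgeR or DESeq2 on recovered reads, and at an unadjusted limma p under 0.05 none was higher on HFHC and 2 were on CDAHFD (Ahcy and Pcyt2). On HFHC, 0 of 10 members were called higher and 2 lower, where 16.8% and 13.8% of the 17441 genes tested were called higher and lower. On CDAHFD, 0 were called higher and 1 lower, where 6.12% and 6.86% of 16803 genes were. For the difference between diets, taken as the CDAHFD change minus the HFHC change, 1 member was above 0 and 1 below, against 9.83% and 13.6% of 16333 genes. These counts are near the background shares and are no result about the set. The median log2 fold change of the members was -0.19 on HFHC (-0.01 over all genes tested) and -0.03 on CDAHFD (0.00 over all genes).

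**Figure D1:**
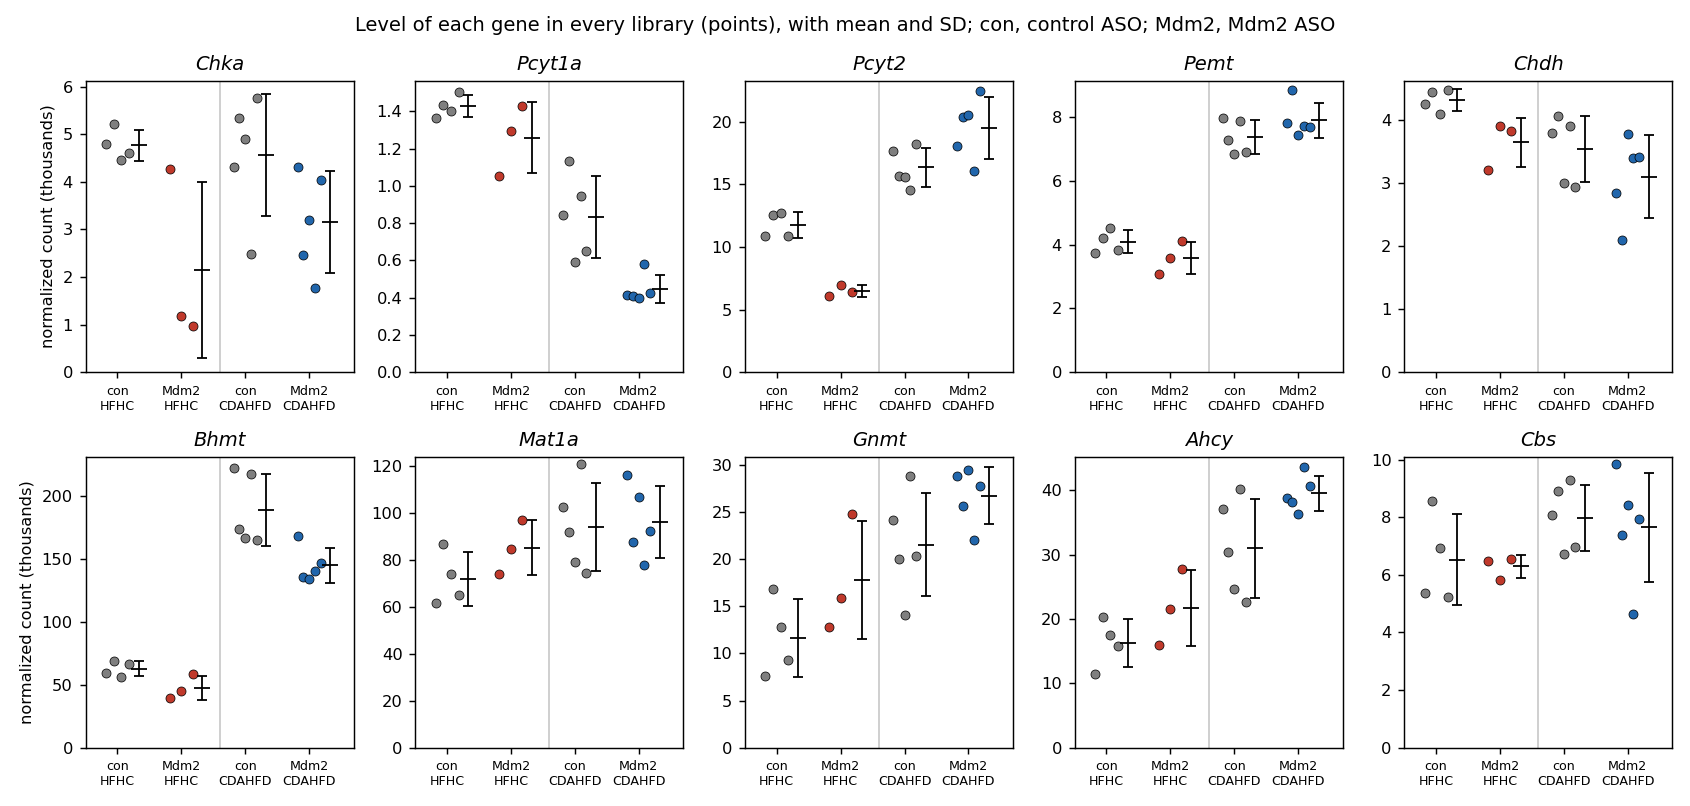
Level of each of the 10 genes in every library, in TMM-normalized counts on linear axes that start at 0. Points are libraries, and bars show the mean and SD of the 4 groups, conASO (con) and Mdm2 ASO (Mdm2) on HFHC (left of the line) and CDAHFD (right). Pcyt2 separates the groups on HFHC only, and Pcyt1a on CDAHFD only.

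Pcyt2, the regulatory enzyme of the CDP-ethanolamine route, had the most even response on HFHC. Its values were 10866, 12572, 12731 and 10914 normalized counts in the conASO libraries and 6075, 6984 and 6401 in the Mdm2 ASO libraries. Every Mdm2 ASO library lay well below every conASO library, and the 3 were close together. The mean fell from 11771 ± 1019 to 6487 ± 460, or to 55.2% of control (log2 fold change -0.86, SE 0.10, 95% interval -1.08 to -0.63, limma adjusted p = 1.9e-04). On CDAHFD the conASO values were 17649, 15695, 15618, 14557 and 18278, and the Mdm2 ASO values 18092, 20382, 20539, 16101 and 22453. There the groups overlapped, with 3 of 5 Mdm2 ASO libraries above all conASO libraries. The CDAHFD means were 16359 ± 1548 and 19514 ± 2455 (log2 fold change 0.25, SE 0.11, limma adjusted p = 0.147). The change on CDAHFD exceeded that on HFHC by 1.11 on the log2 scale (SE 0.15, limma adjusted p = 3.8e-05).

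Pcyt1a, which sets the rate of the CDP-choline route, showed the other pattern. Its CDAHFD values were 843, 1131, 591, 947 and 652 normalized counts with conASO and 414, 408, 399, 579 and 424 with the Mdm2 ASO. The Mdm2 ASO libraries all lay below the lowest conASO library, replicate 3, with replicate 9 (579) nearest to it. The mean fell from 833 ± 220 to 445 ± 75.6 (log2 fold change -0.88, SE 0.17, 95% interval -1.23 to -0.52, limma adjusted p = 0.00421). On HFHC the values were 1367, 1434, 1403 and 1506 with conASO and 1052, 1294 and 1430 with the Mdm2 ASO. These groups overlapped through Mdm2 ASO replicate 10, and their means were 1427 ± 59.1 and 1259 ± 191 (log2 fold change -0.19, SE 0.10, limma adjusted p = 0.191). The change on CDAHFD was below that on HFHC by -0.69 on the log2 scale (SE 0.23, limma adjusted p = 0.0401). That difference lies close to the threshold: the adjusted p was above 0.05 in 13 of 17 fits that left out 1 library, where it ran from 0.0108 to 0.108 with differences of -0.81 to -0.57. It was 0.0625 with libraries scaled to 11 hepatocyte markers, at the same difference of -0.69.

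Chka, the kinase at the entry of the CDP-choline route, varied most of the members between libraries of a group, except in the HFHC controls. On HFHC the conASO values were 4793, 5225, 4470 and 4608, and the Mdm2 ASO values were 4274 in library 6-7, 1186 in replicate 9 and 968 in replicate 10. Library 6-7 sat just under the lowest conASO library, and replicates 9 and 10 lay far below every other library, so the Mdm2 ASO group had a coefficient of variation of 86.3%. The mean fell from 4774 ± 328 to 2143 ± 1849 (log2 fold change -1.49, SE 0.42, 95% interval -2.42 to -0.55, limma adjusted p = 0.0235). This call rested on the libraries and the test used. The adjusted p was 2.1e-06 without Mdm2 ASO library 6-7 (log2 fold change -2.15), 0.102 without Mdm2 ASO replicate 9 (-1.23) and 0.0819 without Mdm2 ASO replicate 10 (-1.08). It was also just above the threshold without conASO replicate 2 (-1.44, adjusted p = 0.0518), 4 (-1.52, 0.0507) or 5 (-1.50, 0.0532). On recovered reads, edgeR's quasi-likelihood test gave an adjusted p of 0.0778 (-1.14) and DESeq2 0.0843 (-1.16), and with the identical columns kept as 2 samples limma gave 0.0733 (-1.15).

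On CDAHFD, Chka was at 4305, 5355, 4894, 2478 and 5771 with conASO and at 4309, 2469, 3208, 1760 and 4042 with the Mdm2 ASO. The groups overlapped, and conASO replicate 4 lay far below the other 4 controls. The means were 4561 ± 1285 and 3158 ± 1065 (log2 fold change -0.55, SE 0.25, limma adjusted p = 0.168), and without conASO replicate 4 the value was -0.75 with an adjusted p of 0.0474. The changes on the 2 diets differed by 0.94 on the log2 scale, which did not pass (limma adjusted p = 0.202), although without the HFHC Mdm2 ASO library 6-7 it did (1.61, limma adjusted p = 0.00627). Its paralog Chkb, the other choline kinase, was at 318 ± 15.3 and 280 ± 25 on HFHC and at 106 ± 18.2 and 110 ± 23.3 on CDAHFD, in conASO and Mdm2 ASO libraries respectively.

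**Figure D2:**
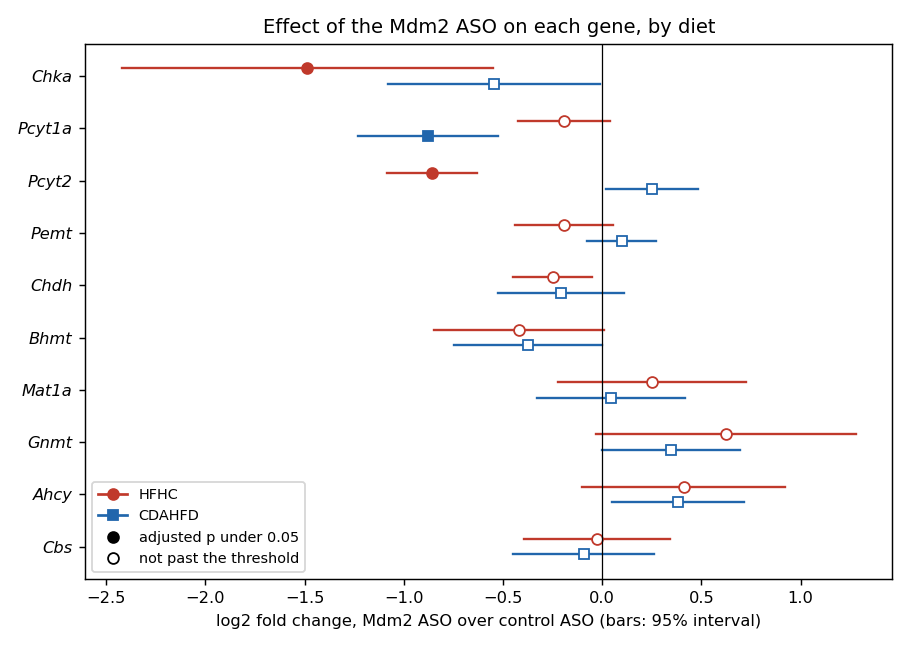
Log2 fold change of each gene, Mdm2 ASO over conASO, on HFHC (red circles) and CDAHFD (blue squares), with 95% intervals as bars. Filled symbols passed the adjusted p threshold of 0.05. Pcyt2 at -0.86 and Chka at -1.49 are filled on HFHC, and Pcyt1a at -0.88 on CDAHFD.

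The promoters of Chka, called on HFHC only, and of Pcyt1a, called on CDAHFD only, are shown as a description. These genes encode consecutive enzymes of one route, and neither was called on both diets. The change of Chka did not differ between the diets past the threshold. RefSeq promoters on GRCm38.p6, from 250 bases before to 50 bases after the annotated start, were at hand for 8 of the 10 genes, and Mat1a and Pcyt2 were the others. Capitals mark CCAAT and GGGCGG on either strand, 5′ to 3′ along the gene. The Chka window is chr19:3851523-3851822 on the plus strand, and the Pcyt1a window, 1 of its annotated starts, is chr16:32430671-32430970 on the plus strand.
Chka: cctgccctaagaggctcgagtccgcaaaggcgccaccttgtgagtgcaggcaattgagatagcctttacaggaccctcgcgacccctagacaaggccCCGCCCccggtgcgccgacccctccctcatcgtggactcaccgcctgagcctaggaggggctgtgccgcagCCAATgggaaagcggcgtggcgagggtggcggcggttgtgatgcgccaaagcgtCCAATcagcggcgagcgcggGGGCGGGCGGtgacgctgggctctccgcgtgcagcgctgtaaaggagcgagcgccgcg
Pcyt1a: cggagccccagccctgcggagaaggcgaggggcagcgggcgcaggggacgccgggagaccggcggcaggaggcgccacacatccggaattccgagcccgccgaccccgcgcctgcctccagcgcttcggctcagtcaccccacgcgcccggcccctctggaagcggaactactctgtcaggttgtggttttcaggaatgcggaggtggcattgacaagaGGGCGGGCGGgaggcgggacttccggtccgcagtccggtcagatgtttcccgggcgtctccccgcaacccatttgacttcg

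Both windows were rich in G and C, at 68.7% for Chka and 69.7% for Pcyt1a, against a median of 52.7% over all promoters of this length. GGGCGG, the core of the GC box, was in both, and in 6 of the 13 promoters of the 8 genes (of Chdh, Cbs, Ahcy, Chka and Pcyt1a), against 35.7% of all 32851 promoters. CCAAT was in Chka but not in the Pcyt1a window, and in 6 of the 13 promoters (of Pemt, Bhmt, Gnmt, Cbs, Ahcy and Chka), against 37.4% of all promoters. The E-box CACGTG was in 1 of the 13, of Cbs (7.15% of all promoters). CAAAGTCCA, an HNF4 motif, TATAAA and the p53 motif, given by its name because it holds ambiguous letters, were in none of the 13, and in 0.475%, 13.6% and 8.36% of all promoters. A match is a string in the window and not a shown site.

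Pemt, which makes phosphatidylcholine from phosphatidylethanolamine, did not pass on either diet. On HFHC it was at 3745, 4209, 4529 and 3844 with conASO and at 3089, 3567 and 4104 with the Mdm2 ASO, with overlap (log2 fold change -0.19, SE 0.11, limma adjusted p = 0.222). On CDAHFD it was at 7975, 7276, 6854, 7884 and 6910 with conASO and at 7819, 8841, 7433, 7710 and 7689 with the Mdm2 ASO. The CDAHFD libraries overlapped broadly, except for replicate 7 of the Mdm2 ASO group at the top (log2 fold change 0.10, limma adjusted p = 0.465).

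Ratios of 2 genes within a library do not move with the scaling factor, and 7 were compared on each diet with exact two-sided permutation tests, adjusted over 14. The log2 ratio of Pcyt1a to Pcyt2, the choline to the ethanolamine branch, was -3.04 ± 0.15 with conASO and -2.37 ± 0.19 with the Mdm2 ASO on HFHC. These groups did not overlap, and the exact permutation p of 0.0571 is the smallest that 4 against 3 libraries can give (adjusted 0.2). On CDAHFD the same ratio had means of -4.33 and -5.46, a difference of -1.13, with overlap through 1 Mdm2 ASO library (exact permutation p = 0.0159, adjusted 0.111). The ratio of Pemt to Pcyt1a, the methylation route to the CDP-choline route, was 1.51 in both HFHC groups, and on CDAHFD it was 0.98 higher with the Mdm2 ASO, without overlap. That CDAHFD value had an exact permutation p of 0.00794, the smallest that 5 against 5 can give, and an adjusted value of 0.111. Gnmt to Pemt was 0.82 higher on HFHC without overlap (exact permutation p = 0.0571, adjusted 0.2) and 0.25 higher on CDAHFD. None of the 14 passed after adjustment. The differences between diets were tested after these values were seen, by exact permutation within each diet over 8820 regroupings, whose null is no change on either diet. Pcyt1a to Pcyt2 differed by -1.79 (exact permutation p = 0.000454, adjusted 0.00317 over 7 ratios) and Pemt to Pcyt1a by 0.98 (exact permutation p = 0.0059, adjusted 0.0206), and the other 5 ratios did not pass.

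**Figure D3:**
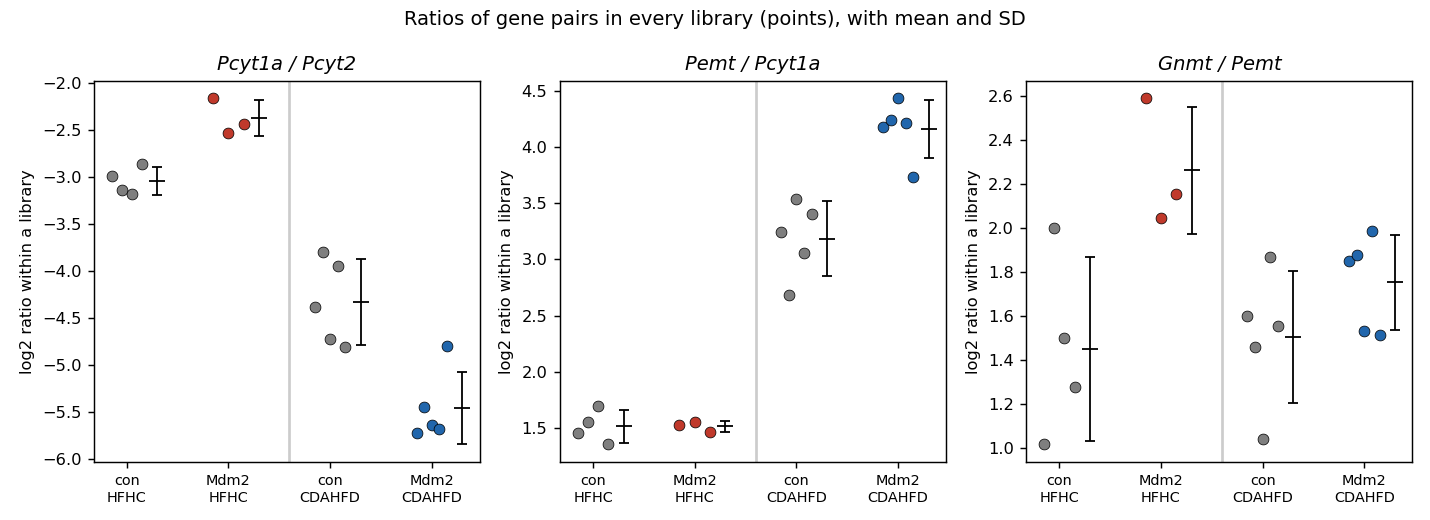
Log2 ratio of 2 genes within each library for Pcyt1a to Pcyt2, Pemt to Pcyt1a and Gnmt to Pemt, with the mean and SD of each of the 4 groups. Pcyt1a to Pcyt2 is higher with the Mdm2 ASO on HFHC (0.67 on the log2 scale) and lower on CDAHFD (-1.13).

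Bhmt, the betaine-dependent remethylating enzyme and in CDAHFD controls the member with the highest level per length, had lower means on both diets without passing the test. On HFHC it was at 59146, 69162, 56274 and 66605 with conASO and at 39208, 44700 and 58357 with the Mdm2 ASO, with overlap through Mdm2 ASO replicate 10 alone (log2 fold change -0.42, SE 0.19, limma adjusted p = 0.129). On CDAHFD it was at 221585, 173224, 166026, 216702 and 164491 with conASO and at 167924, 135431, 133513, 140174 and 146191 with the Mdm2 ASO. Here 4 of 5 Mdm2 ASO libraries lay below every conASO library (log2 fold change -0.37, SE 0.17, limma adjusted p = 0.177). DESeq2 on recovered reads called Bhmt lower on both diets (HFHC -0.41, adjusted p = 0.0220, and CDAHFD -0.38, adjusted p = 0.00971). With scaling to hepatocyte markers it was not called (HFHC -0.31, limma adjusted p = 0.328, and CDAHFD -0.27, adjusted p = 0.189). Over all alternative settings that kept every library, Bhmt passed in 2 of 12 on HFHC (-0.48 to -0.09) and 2 of 11 on CDAHFD (-0.38 to -0.27). The changes on the 2 diets differed by 0.05 (limma adjusted p = 0.920).

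Chdh, which oxidizes choline towards betaine in mitochondria, separated the groups on HFHC by a small step. It was at 4257, 4443, 4092 and 4480 with conASO and at 3202, 3900 and 3829 with the Mdm2 ASO, without overlap. The log2 fold change of -0.25 (SE 0.09) missed the threshold (limma adjusted p = 0.0602), and DESeq2 gave an adjusted p of 0.0343 at the same size. With scaling to hepatocyte markers it was -0.14 (limma adjusted p = 0.592), and 2 of 12 alternative settings that kept every library passed. On CDAHFD the values were 3787, 4060, 3000, 3902 and 2937 with conASO and 2834, 2090, 3770, 3394 and 3420 with the Mdm2 ASO, overlapping (log2 fold change -0.21, limma adjusted p = 0.394). Counting every member, the groups did not overlap for 3 of 10 on HFHC (Chdh, Chka and Pcyt2), where 38.7% of all genes tested did not, and for 1 of 10 on CDAHFD (Pcyt1a), against 10.6%.

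Mat1a, Gnmt and Ahcy, which make S-adenosylmethionine, use it to methylate glycine and clear its product, had higher means with the Mdm2 ASO on both diets, and none passed the test on either. Calls depended on the scaling: with quantile normalization on HFHC, Gnmt (0.77, limma adjusted p = 0.0239), Mat1a (0.55, adjusted p = 0.0219) and Ahcy (0.56, adjusted p = 0.0239) passed. With scaling to hepatocyte markers Gnmt passed on HFHC (0.73, limma adjusted p = 0.0380) and on CDAHFD (0.45, adjusted p = 0.0387), as did Ahcy on CDAHFD (0.48, adjusted p = 0.0282). Without conASO replicate 2, Gnmt also passed on HFHC (0.82, limma adjusted p = 0.0494). On HFHC, Gnmt was at 7564, 16850, 12797 and 9312 with conASO and at 12742, 15880 and 24737 with the Mdm2 ASO (log2 fold change 0.62, SE 0.29, limma adjusted p = 0.138). The groups overlapped, with conASO replicate 2 above 2 of the 3 Mdm2 ASO libraries. On CDAHFD, Gnmt was at 24177, 20001, 14103, 28826 and 20304 with conASO and at 28767, 25588, 29461, 22017 and 27738 with the Mdm2 ASO (log2 fold change 0.35, SE 0.16, limma adjusted p = 0.180).

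Ahcy on HFHC was at 11445, 20304, 17573 and 15857 with conASO and at 15970, 21557 and 27715 with the Mdm2 ASO (log2 fold change 0.41, SE 0.23, limma adjusted p = 0.205). On CDAHFD it was at 37131, 30438, 24591, 40215 and 22570 with conASO and at 38778, 38201, 36369, 43606 and 40600 with the Mdm2 ASO (log2 fold change 0.38, SE 0.15, limma adjusted p = 0.118). The Mdm2 ASO libraries on CDAHFD were close together (SD 2742), near the top of a wide conASO range (SD 7664). Mat1a on HFHC was at 61674, 86952, 74171 and 64936 with conASO and at 74007, 84730 and 97253 with the Mdm2 ASO (log2 fold change 0.25, SE 0.21, limma adjusted p = 0.406). Its CDAHFD means were 93983 ± 18736 and 96266 ± 15266 (log2 fold change 0.04, limma adjusted p = 0.902), with the groups overlapping through most of their ranges. Mat2a, the other catalytic subunit gene for S-adenosylmethionine synthesis, was at 2782 ± 260 and 3319 ± 957 on HFHC and at 3848 ± 610 and 3401 ± 497 on CDAHFD.

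Cbs, the first enzyme of transsulfuration, was the member with the smallest change on HFHC. It was at 5364, 8574, 6938 and 5238 with conASO and at 6496, 5834 and 6543 with the Mdm2 ASO, all 3 inside the conASO range (log2 fold change -0.03, limma adjusted p = 0.924). On CDAHFD it was at 8082, 8897, 6712, 9293 and 6948 with conASO and at 9838, 7381, 8410, 4657 and 7933 with the Mdm2 ASO (log2 fold change -0.09, limma adjusted p = 0.759), with replicate 9 alone below the conASO range. The sign of the Cbs change turned under other scalings on both diets.

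In the HFHC controls, Gnmt, Mat1a, Ahcy and Cbs were ordered much alike over the libraries, each highest in replicate 2. The summed level of 8 periportal hepatocyte markers was 70483, 141584, 111528 and 78315 normalized counts in replicates 1, 2, 4 and 5, also highest in replicate 2. The pericentral sum (196985, 256569, 245796 and 220387) had the same order, and the sum of the general hepatocyte markers was highest in replicate 2 as well. The summed level of 8 cholangiocyte markers was 12048, 4147, 5142 and 8634, lowest there. Whether the makeup of the tissue piece plays a part in these member levels was not tested.

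**Figure D4:**
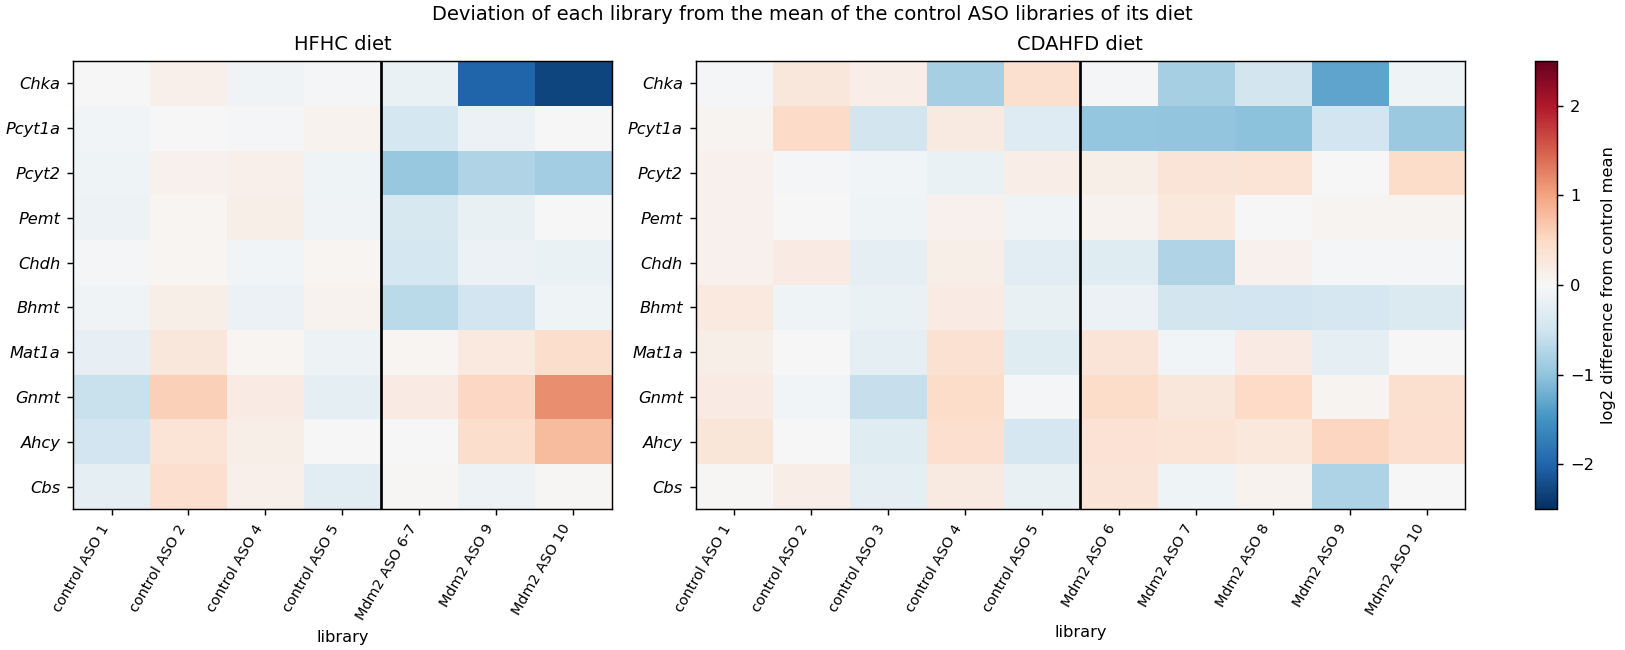
Deviation of each library from the mean of the conASO libraries of its diet, as a log2 difference (blue lower, red higher), with 1 row per gene and 1 column per library and a line between the ASO groups. The darkest cells are Chka in Mdm2 ASO replicates 9 and 10 on HFHC, while Pcyt2 is blue in all 3 Mdm2 ASO libraries there and Pcyt1a in all 5 on CDAHFD.

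Cell type markers also changed with the Mdm2 ASO on HFHC. The shares of all genes tested that were called higher and lower were 16.8% and 13.8% on HFHC, and 6.12% and 6.86% on CDAHFD. In bulk samples, fewer cells of a type and less RNA per cell cannot be told apart. The summed level of 12 monocyte and neutrophil markers was 3251 to 5993 with conASO and 21992 to 25930 with the Mdm2 ASO, with 9 of 12 called higher. The Kupffer cell sum over 9 markers went from 7524 to 12725 up to 30161 to 34601. Of these markers 5 were called higher (Cd5l, Adgre1, C1qa, C1qb and C1qc). The other 4 were not called: Clec4f (log2 fold change 0.32, limma adjusted p = 0.341), Vsig4 (0.60, 0.194), Timd4 (-0.06, 0.950) and Marco (1.64, 0.336). All 7 red blood cell markers were called higher. The cholangiocyte sum was 4147 to 12048 with conASO and 2354 to 3128 with the Mdm2 ASO, with 6 of 8 called lower. The 13 mitochondrially encoded genes summed to 1.23 to 1.51 M normalized counts with conASO and 0.662 to 0.774 M with the Mdm2 ASO, with 10 called lower. Of sinusoidal endothelial markers, 7 of 9 were called higher. Of 10 hepatic stellate cell markers, 5 were called higher and 1 lower. Of B and plasma cell markers 5 of 7 were called higher, and of T and NK cell markers 3 of 7 tested. Of pericentral hepatocyte markers 3 of 8 were called lower, with sums of 196985 to 256569 and 141069 to 199170, and of periportal ones 3 of 8 were lower, with overlapping sums. Of general hepatocyte markers, 0 of the 11 measured were called by limma, nor at an unadjusted p under 0.05, and their sum overlapped between the groups. The part of these markers' cell types in the HFHC results was not tested. With libraries scaled to the hepatocyte markers, Pcyt2 (-0.75) and Chka (-1.38, limma adjusted p = 0.00476) on HFHC kept their calls. That scaling shifts all genes of a library by 1 factor and cannot remove RNA of other cell types. On CDAHFD, limma called 0 of 12 monocyte and neutrophil markers (1 at an unadjusted p under 0.05). Of cholangiocyte markers it called 0 of 8 (5 at that level, 4 of them higher). It called 1 of 11 hepatocyte, 2 of 8 periportal and 1 of 9 Kupffer cell markers lower. In 5 lists it called 1 marker higher: pericentral (of 8), sinusoidal endothelial (of 9), hepatic stellate (of 10), B and plasma cell (of 7) and mitochondrially encoded (of 13). No marker was at 0 in every library of a group, except 1 red blood cell gene in the CDAHFD Mdm2 ASO group.

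Per length, in reads per kilobase of exon and per M reads (RPKM), the members ran over a wide range. In HFHC controls the order from the top was Mat1a (1070 ± 112), Bhmt (566 ± 57.3), Gnmt (494 ± 148), Ahcy (299 ± 55.2), Pcyt2 (140 ± 5.16), Pemt (100.4 ± 5.09), Cbs (44.9 ± 8.34), Chdh (36.1 ± 2.63), Chka (20.6 ± 1.36) and Pcyt1a (10.0 ± 0.719). The methionine cycle enzymes were thus far above the CDP-choline enzymes, and the ranges over the 4 libraries overlapped for the neighbours Bhmt and Gnmt, Gnmt and Ahcy, and Cbs and Chdh. In CDAHFD controls Bhmt was at 1335 ± 134 RPKM, above Mat1a at 1104 ± 169, and Pcyt1a was again the lowest, at 4.56 ± 1.01. Per M reads, control livers held 3258 ± 330 for Bhmt on HFHC and 7687 ± 771 on CDAHFD, and 74.1 ± 5.33 and 33.8 ± 7.45 for Pcyt1a. Diet and table cannot be told apart here, so these control levels stand side by side without a test.

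Lists of related genes, 7 in all, gave the surroundings of the members. Of all genes tested, 16.8% were called higher and 13.8% lower on HFHC, and 6.12% and 6.86% on CDAHFD. For the difference between diets, 9.83% were above 0 and 13.6% below. The counts of each list stand beside these shares, and no list was tested as a set. Of 12 other genes of phosphatidylcholine and phosphatidylethanolamine synthesis, 0 rose (1 at an unadjusted limma p under 0.05) and 3 fell on HFHC (median -0.18). They were Phospho1, a phosphocholine and phosphoethanolamine phosphatase (-2.42, SE 0.15, limma adjusted p = 3.3e-06), Selenoi, the ethanolaminephosphotransferase (-0.45, adjusted p = 7.7e-04), and Ptdss2, a phosphatidylserine synthase (-0.32, adjusted p = 0.0389). On CDAHFD, 1 rose and 2 fell (median -0.06): the ethanolamine kinase Etnk2 (0.86, limma adjusted p = 0.00896), Cept1, the choline/ethanolamine phosphotransferase (-0.34, adjusted p = 0.00994), and Pisd, the phosphatidylserine decarboxylase (-0.43, adjusted p = 0.0305). Of the 12, 0 differed between diets past the limma threshold, and 4 did at an unadjusted p under 0.05.

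Among 19 genes of phosphatidylcholine remodelling and breakdown, 4 rose and 5 fell on HFHC (median -0.20) and 2 rose and 2 fell on CDAHFD (median 0.07). Those that rose on HFHC include the lysophospholipid acyltransferases Lpcat2 (1.14, limma adjusted p = 0.00126) and Lpcat4 (1.61, adjusted p = 0.00128) and the lysosomal phospholipase Pla2g15 (1.39, adjusted p = 1.3e-05). Lpcat3, the acyltransferase that places polyunsaturated chains, fell on HFHC (-0.67, limma adjusted p = 6.3e-04) and on CDAHFD (-0.39, adjusted p = 0.0248). Abcb4, which exports phosphatidylcholine into bile, also fell on both (-0.77, limma adjusted p = 2.1e-04, and -0.43, adjusted p = 0.0404). Gpcpd1, a glycerophosphocholine phosphodiesterase, rose on CDAHFD (1.33, limma adjusted p = 0.00541).

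Of 14 genes of choline transport and oxidation tested, of 16 listed, 2 rose and 4 fell on HFHC (median -0.18), and 0 rose (1 at an unadjusted limma p under 0.05) and 2 fell on CDAHFD (median -0.04). The choline transporters Slc44a2 (1.79, limma adjusted p = 4.3e-06) and Flvcr1 (1.99, adjusted p = 2.5e-05) rose on HFHC. On CDAHFD they were at 0.30 and -0.13 without passing, and their changes differed between the diets by -1.49 (limma adjusted p = 2.1e-04) and -2.12 (adjusted p = 2.9e-05). Slc44a1, another choline transporter, fell on CDAHFD (-0.27, limma adjusted p = 0.0426), as did Flvcr2 (-0.57, adjusted p = 0.00359).

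Of 15 genes of the methionine cycle and its methyltransferases, 2 rose and 4 fell on HFHC (median 0.03), and 4 rose and 3 fell on CDAHFD (median 0.01). Mtr, the methionine synthase that uses methyl-folate, rose on HFHC (0.74, limma adjusted p = 0.00241). Nnmt, the nicotinamide methyltransferase, rose on CDAHFD (1.18, limma adjusted p = 4.4e-04) and had a log2 fold change of 1.07 on HFHC that did not pass (adjusted p = 0.0946). The arsenite methyltransferase As3mt fell on both diets (-0.73, limma adjusted p = 6.1e-04, and -1.23, adjusted p = 2.9e-04).

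In transsulfuration, cysteine and glutathione metabolism, beyond Cbs, 0 of 14 genes rose (1 at an unadjusted limma p under 0.05) and 7 fell on HFHC (median -0.31), and 2 rose and 1 fell on CDAHFD (median -0.15). Csad, a taurine-synthesis enzyme, fell on both diets (-1.31, limma adjusted p = 0.00138, and -0.98, adjusted p = 0.0104), and Ethe1, a sulfide-oxidizing dioxygenase, fell on HFHC (-0.95, limma adjusted p = 5.5e-05). Of 20 folate and one-carbon genes, 1 rose and 3 fell on HFHC and 1 rose and 1 fell on CDAHFD. Ftcd, an enzyme of histidine breakdown that passes a one-carbon unit to folate, rose on CDAHFD (0.73, limma adjusted p = 6.8e-04). Of 14 polyamine and methionine salvage genes, 2 rose and 2 fell on HFHC and 1 rose on CDAHFD. The spermine synthase Sms rose on HFHC (0.83, limma adjusted p = 0.00138), as did Sat1, the spermidine/spermine acetyltransferase (0.37, adjusted p = 0.0107).

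**Figure D5:**
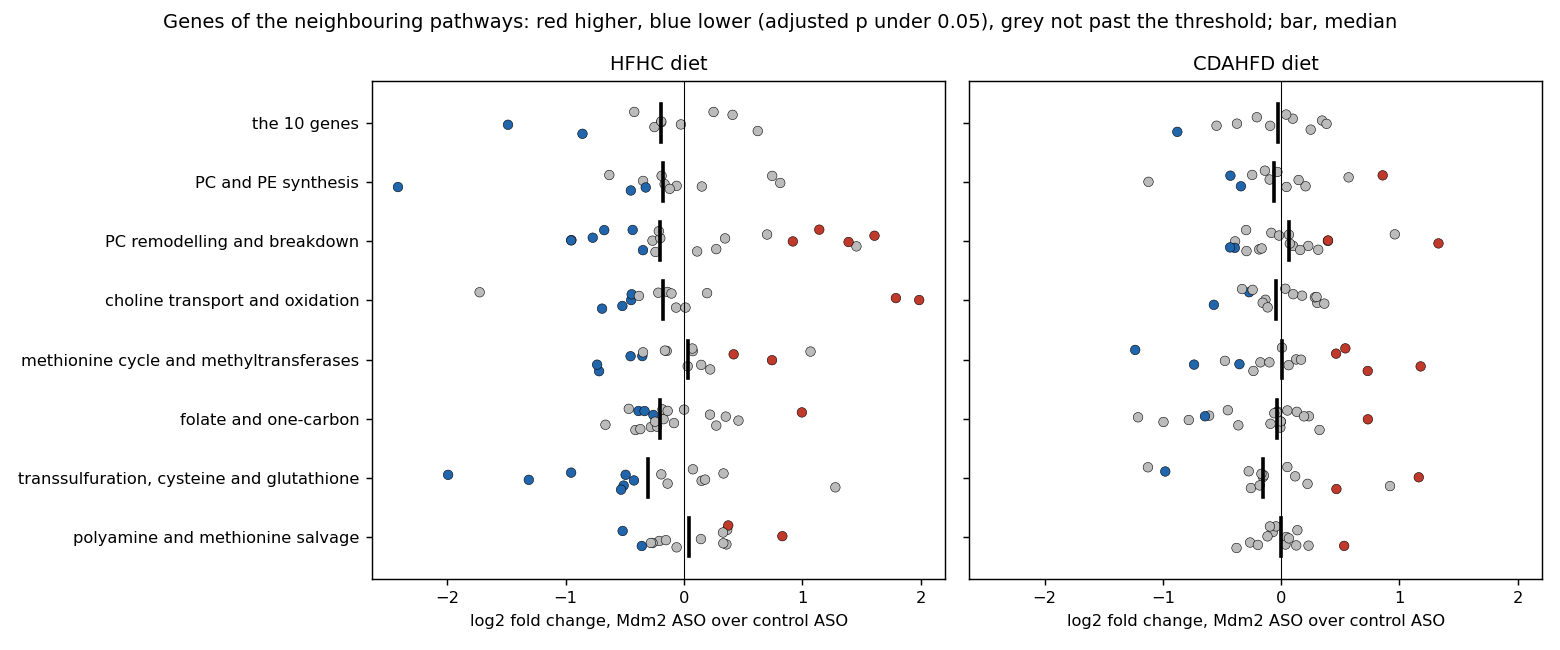
Log2 fold change (Mdm2 ASO over conASO) of each tested gene of the 10 members and the 7 related lists on HFHC (left) and CDAHFD (right), on one scale. Points are genes, red or blue where called higher or lower, and bars are list medians. Phospho1 at -2.42 lies lowest in phospholipid synthesis on HFHC, and Flvcr1 at 1.99 highest in choline transport.

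Exons of Pcyt1a, Chdh, Bhmt and Chka overlap exons of other genes on the opposite strand over 9.09%, 9.47%, 3.25% and 1.99% of their exonic bases in GENCODE M21, and the other 6 members overlap none. The labels describe strand-specific libraries, and the strand setting of the counting is not given in the sources used here, so for those 4 genes reads of the partner cannot be told apart with certainty. For Pcyt1a the partners are Slc51a and 2210020O09Rik.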

How the data were processed

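Liver RNA was sequenced from 18 samples in 4 groups. Per the submitters' processing notes, STAR 2.7.10b aligned the reads to GRCm39, and featureCounts (Subread 2.0.3) gave counts per gene. The authors' deposited values are a signal, TMM-normalized counts per the labels, in 1 table per diet. They are not raw counts, so limma-trend was used on log2(value + 0.5), within each table, for genes that reached 1 in a number of libraries equal to the smaller group. Diets were compared by an interaction contrast over genes that passed in both. Every value was a whole multiple of 1 read within its library, and edgeR and DESeq2 ran on the recovered reads as alternatives.

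The members and lists were chosen with earlier results of these data known. All 10 members are named, with Mdm2, the genes of the fixed ratios and, per related list and diet, up to 3 called genes in each direction by p, of which the text gives a part; some are not reported here. Nnmt, Slc44a2 and Flvcr1 are also given for the diet where they were not called, chosen after their values were seen. Exonic lengths are those of GENCODE M21 (GRCm38), matched for 96.7% of genes. Each model was run on simulated counts with known changes, which checks the code and is no evidence for the calls above. Analyses ran in R 4.3.3 (limma 3.58.1, edgeR 4.0.16, DESeq2 1.42.0) and Python 3.11.15.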

Additional observations from a re-analysis of the deposited data

Results flagged for a closer look

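The test for a sample far from its group left out the HFHC Mdm2 ASO groups, which with 3 libraries were too small for it. The ratios reuse values of the members, so the groups tested are not independent. In this test 6 of 54 groups stood out, where chance gives about 1 in 20. They were Pemt in CDAHFD Mdm2 ASO replicate 7 (8841 normalized counts, highest), Pcyt1a in CDAHFD Mdm2 ASO replicate 9 (579, highest), Mdm2 in HFHC conASO replicate 1 (907, lowest) and Mdm2 in CDAHFD Mdm2 ASO replicate 6 (861, highest). The others were the log2 ratio of Bhmt to Cbs in CDAHFD Mdm2 ASO replicate 9 (4.91, highest) and of Bhmt to Chdh in a CDAHFD conASO library (5.41, lowest).

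Changes that differed between diets by the interaction test, as the CDAHFD change minus the HFHC change on the log2 scale, were Pcyt1a (-0.69) and Pcyt2 (1.11) among the members. Among the related genes they included Flvcr1 (-2.12), Pla2g15 (-1.56), Lpcat2 (-1.53), Slc44a2 (-1.49), Lpcat4 (-1.30), Gatm (-0.90), Sms (-0.60) and Mtr (-0.58) below 0. Above 0 they included Pla2g6 (0.94), Gamt (0.82), Ethe1 (0.77), Ftcd (0.73), Pnpla6 (0.66) and Gss (0.58). The ratios of Pcyt1a to Pcyt2 (-1.79) and Pemt to Pcyt1a (0.98) passed the permutation within diets. That test was run after the values were seen, and its null is no change on either diet. These ratios reuse the values of the same genes, so they are no separate result.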

How the results depend on the processing

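Pcyt2 on HFHC, Pcyt1a on CDAHFD and the Pcyt2 difference between diets kept direction and call in every setting tried. No paired analysis was possible because the groups compared share no replicate numbers. Members called higher on HFHC went from 0 to 3 with quantile scaling and 1 with scaling to 11 hepatocyte markers (0 to 1 with 1 library left out), and on CDAHFD to 1 and 2. Members called lower on HFHC went from 2 to 1 with edgeR and to 3 (Bhmt, Chdh and Pcyt2) with DESeq2 and with the identical columns kept as 2 (1 to 2 with 1 library left out), and on CDAHFD from 1 to 2 with DESeq2 and with voom (1 to 2 with 1 library left out). For the difference, members above 0 were 1 to 2 with 1 library left out, and members below 0 were 0 with hepatocyte scaling and 0 to 1 with 1 library left out. All genes called lower on HFHC (2399) became 3725 with quantile, 1460 with library-size and 797 with hepatocyte scaling, against 2482 called higher with quantile scaling. They were 1552 to 2331 with 1 library left out, the lowest without Mdm2 ASO replicate 9. On CDAHFD, genes called lower (1153) became 423 with hepatocyte scaling and 675 to 1193 with 1 library left out, and genes called higher (1028) became 557 to 1090, with 557 and 675 without conASO replicate 2 and 629 higher without Mdm2 ASO replicate 8. Genes above 0 in the difference (1606) became 2466, 963 and 871 with quantile, library-size and hepatocyte scaling. These scalings moved the median of all genes on HFHC by -0.11, 0.10 and 0.10.

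Direction turned only for members with changes near 0. Cbs on HFHC was 0.08 with the same 3 scalings and -0.12 to 0.12 with 1 library left out, and on CDAHFD 0.01 with hepatocyte scaling and -0.19 to 0.08. Mat1a on CDAHFD was -0.03 to 0.14 with 1 library left out. Of the differences, Bhmt was -0.18 and -0.07 with quantile and library-size scaling (-0.08 to 0.21 with 1 library left out), Chdh 0.00 and -0.07 (-0.05 to 0.18), Cbs 0.00 with DESeq2 (-0.21 to 0.10) and Ahcy 0.08 with the identical columns kept as 2 (-0.23 to 0.17). On HFHC, the ratio of Pemt to Pcyt1a was 0.00 with a pseudocount of 5 and -0.05 to 0.06 with 1 library left out, and Mat1a to Mat2a was -0.04 to 0.15. With 3 Mdm2 ASO libraries on HFHC, ratios there cannot reach an exact p below 0.0571.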
